A study of Mus musculus with 10 samples.

Results

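The EGF receptor family and its ligands were followed in cultured mouse fibroblasts: the ligand genes Areg, Ereg, Hbegf, Tgfa, Btc and Nrg1, the receptor genes Egfr, Erbb2 and Erbb3, and Errfi1, which encodes an inhibitor that binds the activated receptors. The 10 genes were chosen by symbol, as members of the family, and were matched to the Ensembl identifiers of the count table through the GENCODE annotation. Values were analysed for 9 of the 10, among 22731 genes in all. Of these, 8 had enough reads to be tested, among 16344 genes tested. Erbb3 did not pass the filter on low counts and is given as counts. Areg, which encodes amphiregulin, a ligand that ILC2s also secrete, was not analysed here.

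Ligands of this family are made as membrane-anchored precursors, and proteases of the ADAM family cut them free. A ligand binds EGFR, ERBB3 or ERBB4, the receptors pair, and the paired kinases phosphorylate their own tails; ERBB2 binds no ligand of its own and serves as a partner, and ERBB3 has little kinase activity and signals through its partner. In fibroblasts EGFR signalling is known for driving division and migration, and Errfi1 (also called Mig6) is a feedback inhibitor whose transcription follows receptor activation.

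The libraries came from 3 groups, with 3 of fibroblasts cocultured with WT ILC2s, 3 cocultured with IL13KO ILC2s and 4 of fibroblasts in monoculture. Group 2 innate lymphoid cells (ILC2s) are tissue-resident lymphocytes that lack antigen receptors and secrete IL-5, IL-13 and other type 2 cytokines, and the IL13KO label names a knockout of Il13 in the ILC2s. The fibroblasts of every group carry the genotype label C57B6 and were sorted as live CD45-, Epcam-, CD31-, Pdpn+ and Pdgfra+ cells. The ILC2s were sorted as CD45+, CD3-, B220-, Lineage- and KLRG1+ cells. The series title places the study in the pancreas. The sources used here give no age, no sex, no culture time and no number of animals, and no label ties a library to an animal, a culture or a day, so p-values measure only the spread between these libraries. The gate stated for the sort that followed coculture is CD45+, Pdpn+ and Pdgfra+; Ptprc, the gene of CD45, had 3 to 9 reads per library in WT cocultures, 0 to 1 in IL13KO cocultures and 0 in every monoculture. Levels are CPM, read counts scaled to a common library size by TMM. In the count table the WT coculture columns carry the numbers 1, 3 and 4, and those numbers name the libraries here.

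Of the tested members, Tgfa, Egfr, Erbb2 and Errfi1 were higher in both cocultures than in monoculture, and the 250 bases before each of their starts are printed from RefSeq (GRCm38.p6, plus strand) because these are the members called higher in both, though between the cocultures Egfr and Errfi1 differed in opposite directions. Capitals mark matches, on either strand, to 5 motifs: TTCNNNNGAA and TTCNNNGAA (spacings bound by STAT6 and other STAT factors), TGANTCA (AP-1), GGGCGG (the GC box) and TGACGTCA (the cyclic AMP response element). Errfi1 has 2 annotated starts.
Tgfa, chr6:86194972-86195221: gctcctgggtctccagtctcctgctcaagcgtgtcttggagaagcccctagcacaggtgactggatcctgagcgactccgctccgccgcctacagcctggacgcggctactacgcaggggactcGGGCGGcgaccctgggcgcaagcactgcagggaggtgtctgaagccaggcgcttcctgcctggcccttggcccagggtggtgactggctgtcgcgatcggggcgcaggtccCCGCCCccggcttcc
Egfr, chr11:16751953-16752202: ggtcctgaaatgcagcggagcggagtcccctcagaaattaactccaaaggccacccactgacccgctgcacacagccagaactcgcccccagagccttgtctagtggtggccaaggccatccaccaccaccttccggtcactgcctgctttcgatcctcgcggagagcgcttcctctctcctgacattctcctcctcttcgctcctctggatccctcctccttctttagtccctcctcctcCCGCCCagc
Erbb2, chr11:98412234-98412483: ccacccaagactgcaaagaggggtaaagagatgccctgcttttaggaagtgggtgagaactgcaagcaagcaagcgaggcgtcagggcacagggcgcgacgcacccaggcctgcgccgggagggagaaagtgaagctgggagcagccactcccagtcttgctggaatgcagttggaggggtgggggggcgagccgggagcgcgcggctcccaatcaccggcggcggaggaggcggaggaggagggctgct
Errfi1 upstream start, chr4:150853546-150853795: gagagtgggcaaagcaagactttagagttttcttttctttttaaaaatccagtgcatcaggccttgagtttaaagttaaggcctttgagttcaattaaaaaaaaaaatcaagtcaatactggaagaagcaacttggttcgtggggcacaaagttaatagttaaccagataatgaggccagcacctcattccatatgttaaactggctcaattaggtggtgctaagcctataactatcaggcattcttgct
Errfi1 downstream start, chr4:150854820-150855069: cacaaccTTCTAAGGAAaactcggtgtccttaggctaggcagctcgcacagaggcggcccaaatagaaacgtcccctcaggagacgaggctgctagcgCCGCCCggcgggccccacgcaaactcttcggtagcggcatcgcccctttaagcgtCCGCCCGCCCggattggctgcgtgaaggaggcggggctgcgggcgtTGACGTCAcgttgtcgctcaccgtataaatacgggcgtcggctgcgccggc
The downstream Errfi1 window holds 1 TTCNNNNGAA match, 243 bases before the start, a motif found in 5.85% of the 32851 RefSeq promoter windows of this length. The same window holds TGACGTCA 51 bases before the start, a motif in 1.55% of windows, and 3 matches to GGGCGG, of which those 97 and 93 bases before the start overlap. GC boxes, present in 32.7% of windows, also lie 126 and 15 bases before the Tgfa start and 9 bases before the Egfr start. None of the motifs occurs in the Erbb2 window or the upstream Errfi1 window. Neither TTCNNNGAA (7.02% of windows) nor TGANTCA (6.75%) occurs in any of the 5 windows. The windows of Tgfa, Erbb2, Egfr and the downstream Errfi1 start are 69.2%, 66.0%, 60.8% and 64.8% G and C, against 38.0% for the upstream Errfi1 start and a median of 52.4% over all windows. These matches are a description of the letters only.

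Library totals were 18801744 to 22087459 counts in WT cocultures, 17277432 to 17661229 in IL13KO cocultures and 10710410 to 14366199 in monocultures. At these depths 3 reads, the level taken as the limit of detection, correspond to 0.135 to 0.162 CPM, 0.17 to 0.171 CPM and 0.211 to 0.277 CPM in the 3 groups, and cover counting error only. Il13, the gene the IL13KO label refers to, was read 30, 120 and 121 times with WT ILC2s and 0 times in each IL13KO coculture and monoculture. The fibroblast markers Pdgfra and Pdpn were read at 557 to 747 and 293 to 377 CPM in WT cocultures, 652 to 821 and 270 to 303 CPM in IL13KO cocultures, and 367 to 378 and 238 to 298 CPM in monocultures. Both coculture comparisons use the same 4 monocultures. Fold changes against monoculture followed the GC content of a gene's transcript over 16313 genes. Spearman's rho was 0.341 for WT cocultures and 0.405 for IL13KO cocultures, against -0.046 for WT against IL13KO cocultures. Values after removal of each library's GC and length trend are therefore given beside many of the fitted ones. Values given only as fitted can also differ after that removal. That removal also moved the balance of calls, to 4057 higher and 5518 lower in WT cocultures, against 5355 and 4857 as fitted, and to 2966 higher and 4966 lower in IL13KO cocultures, against 4927 and 4457 as fitted.

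With WT ILC2s the transcripts of 2 ligands (Tgfa and Nrg1), of Egfr and Erbb2 and of the inhibitor Errfi1 were higher than in monoculture, and that of the ligand Ereg was lower: 6 of 8 tested members were called, 5 higher and 1 lower, where 62.5% of all genes tested were called (32.8% higher and 29.7% lower). With IL13KO ILC2s 5 of 8 were called against monoculture, with Tgfa, Egfr, Erbb2 and Errfi1 higher and Ereg lower, beside a background of 57.4% (30.1% higher and 27.3% lower). Between the cocultures 3 of 8 were called, beside a background of 23.3%: Nrg1 and Errfi1 were higher with WT ILC2s (11.6% of genes were) and Egfr was lower (11.7% were). Once the GC and length trend was taken out, 5, 5 and 3 of 8 members were called in these 3 comparisons, beside 58.6%, 48.5% and 26.5% of all genes. The shares of members called therefore lie near the background, and the account that follows is of the single genes. A call is an edgeR quasi-likelihood test whose p, adjusted by Benjamini-Hochberg over all 16344 genes, was under 0.05.

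**Figure D1:**
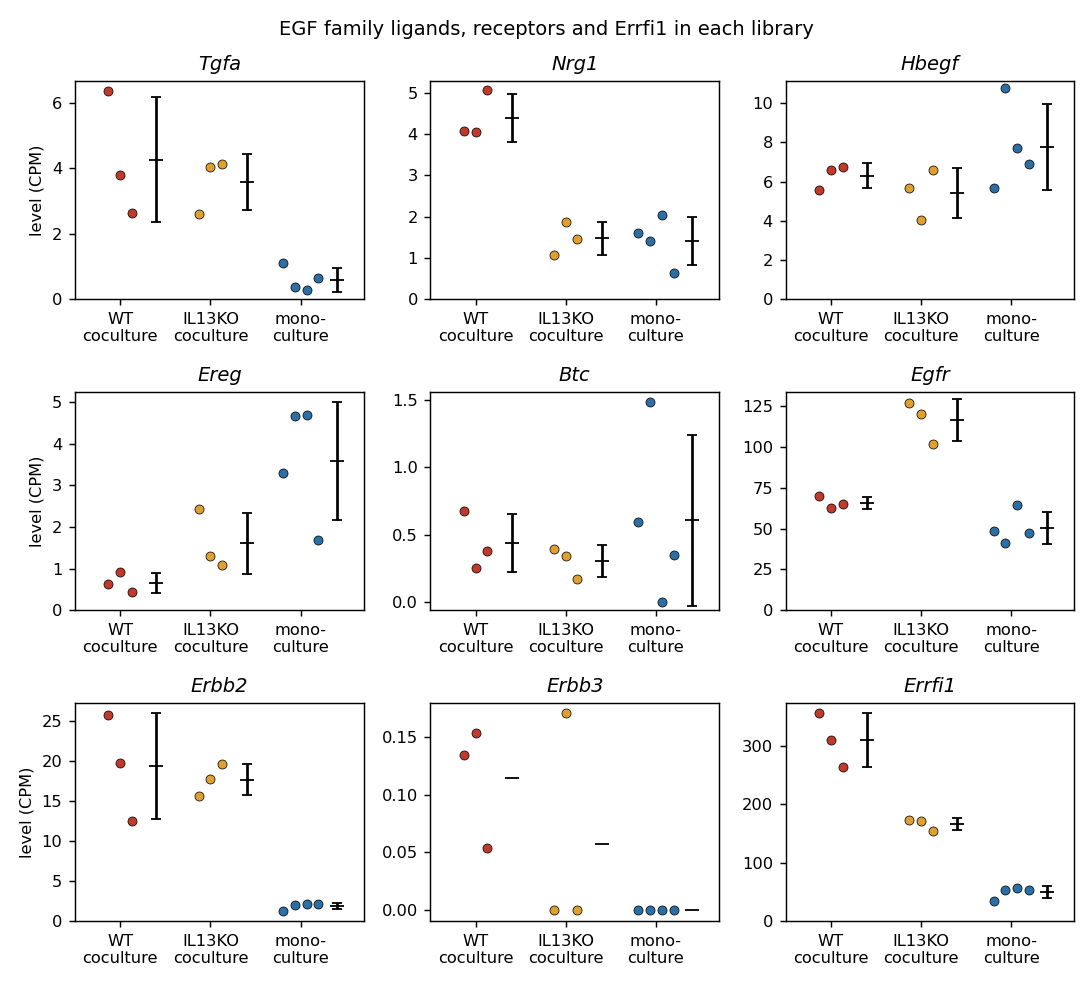
Level of each member in each library, in CPM on linear axes, with points for libraries and a bar at the mean with 1 SD (for Erbb3, with 7, 3 and 0 reads in the 3 groups, the mean alone). Errfi1 steps down over WT coculture, IL13KO coculture and monoculture without overlap, Egfr is highest in IL13KO cocultures at 102 to 127 CPM, and Nrg1 stands at 4.05 to 5.07 CPM in WT cocultures, above every other library.

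Tgfa encodes transforming growth factor alpha, a ligand of EGFR (GRCm38 chr6:86195223-86275719, plus strand). It was read at 6.37, 3.79 and 2.64 CPM in WT cocultures, 2.61, 4.04 and 4.14 CPM in IL13KO cocultures and 1.10, 0.370, 0.277 and 0.633 CPM in monocultures. Every coculture library lay above every monoculture, and the cocultures overlapped each other. The monoculture values rest on 13, 5, 3 and 9 reads. In bulk libraries such as these, more RNA per cell and more cells of a kind that expresses a gene cannot be told apart. Against monoculture Tgfa was 7.12-fold higher with WT ILC2s (log2 2.83 ± 0.43 SE, edgeR adjusted p = 8.73e-05) and 5.98-fold higher with IL13KO ILC2s (log2 2.58 ± 0.43, adjusted p = 0.000272). With the GC and length trend removed these were 2.10 (adjusted p = 0.000795) and 1.77 (adjusted p = 0.00421) on the log2 scale. Between WT and IL13KO cocultures the difference was 0.25 on the log2 scale, with a 95% interval of -0.57 to 1.07 and an adjusted p of 0.68.

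Nrg1 encodes neuregulin 1, a ligand of ERBB3 and ERBB4 (chr8:31814551-32884029, minus strand). Its levels were 4.08, 4.05 and 5.07 CPM in WT cocultures, 1.08, 1.88 and 1.47 CPM in IL13KO cocultures and 1.6, 1.41, 2.03 and 0.633 CPM in monocultures. The WT cocultures stood apart from all 7 other libraries, while IL13KO cocultures and monocultures overlapped. Nrg1 was 3.14-fold higher with WT ILC2s than in monoculture (log2 1.65 ± 0.33 SE, edgeR adjusted p = 0.000795) and 2.97-fold higher with WT than with IL13KO ILC2s (log2 1.57 ± 0.35, adjusted p = 0.00596). With IL13KO ILC2s against monoculture the log2 difference was 0.08, with a 95% interval of -0.70 to 0.86 (adjusted p = 0.863). Removing the GC and length trend left these values at 1.74, 1.63 and 0.11. Nrg1 was the one ligand called between the cocultures.

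Ereg encodes epiregulin, a ligand of EGFR and ERBB4 (chr5:91074622-91093646, plus strand). It was read at 0.628, 0.922 and 0.431 CPM in WT cocultures, 2.44, 1.31 and 1.08 CPM in IL13KO cocultures and 3.29, 4.67, 4.7 and 1.69 CPM in monocultures. WT cocultures lay below every library of both other groups, and IL13KO cocultures overlapped monocultures through IL13KO library 1 and monoculture 4. In WT cocultures Ereg fell by 2.42 on the log2 scale against monoculture (SE 0.45, edgeR adjusted p = 0.000449; -2.04 with the trend removed, adjusted p = 0.00195). In IL13KO cocultures it fell by 1.15 on the log2 scale (SE 0.41, adjusted p = 0.0298). That call ended with the GC and length trend removed (-0.82, adjusted p = 0.127) and without IL13KO library 2 (-1.01, 0.108), IL13KO library 3 (-0.92, 0.123), monoculture 2 (-0.99, 0.0727) or monoculture 3 (-1, 0.0632). WT against IL13KO cocultures gave -1.27 ± 0.48 SE, adjusted p = 0.073, which missed the threshold although the 3 libraries of each group did not overlap; it passed in a fit of those 2 groups alone (adjusted p = 0.0308) and without monoculture 4 (adjusted p = 0.0414).

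Hbegf encodes heparin-binding EGF-like growth factor, a ligand of EGFR and ERBB4 (chr18:36504927-36515805, minus strand). Its levels were 5.56, 6.61 and 6.74 CPM in WT cocultures, 5.67, 4.04 and 6.58 CPM in IL13KO cocultures and 5.66, 10.8, 7.74 and 6.89 CPM in monocultures. All 3 groups overlapped, and monoculture 2 held the highest value. No comparison passed edgeR's test: the log2 differences were -0.31 for WT cocultures against monocultures (95% interval -0.82 to 0.21, adjusted p = 0.28), -0.52 for IL13KO cocultures against monocultures (-1.04 to 0.00, adjusted p = 0.0828) and 0.21 for WT against IL13KO cocultures (-0.34 to 0.77, adjusted p = 0.593). The IL13KO difference did pass with the GC and length trend removed (-0.65, adjusted p = 0.0309), with upper-quartile scaling (-0.62, 0.0396) and without monoculture 1 (-0.65, 0.0303).

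Btc encodes betacellulin, a ligand of EGFR and ERBB4 (chr5:91357261-91402994, minus strand), and was close to the limit of detection. It had 15, 5 and 7 reads in WT cocultures, 7, 6 and 3 reads in IL13KO cocultures and 7, 20, 0 and 5 reads in monocultures. The groups overlapped, and the monocultures spanned the widest range. The 95% intervals of its log2 differences ran from -2.11 to 1.13, from -2.76 to 0.72 and from -1.29 to 2.35 for WT cocultures against monocultures, IL13KO cocultures against monocultures and WT against IL13KO cocultures, so no difference was detectable at this depth (edgeR adjusted p = 0.589, 0.295 and 0.699).

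Of the other ligands of the family, Nrg4, a ligand of ERBB4, was the one with enough reads to be tested. It averaged 21 ± 0.246 CPM in WT cocultures, 23.0 ± 1.47 CPM in IL13KO cocultures (SD, n = 3 each) and 24.5 ± 2.98 CPM in monocultures (SD, n = 4), and passed no test (edgeR adjusted p = 0.145, 0.573 and 0.518 for the WT, IL13KO and WT against IL13KO comparisons). Egf, the founding ligand, had 4, 0 and 2 reads in WT cocultures, 2, 0 and 0 in IL13KO cocultures and 12, 4, 9 and 0 in monocultures. Epgn, which encodes epigen, had 2, 0 and 4 reads in WT cocultures, 3, 3 and 1 in IL13KO cocultures and 0 in each monoculture. Neither passed the filter. Nrg2, Nrg3 and Erbb4 were not analysed here.

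Egfr encodes the receptor for EGF, TGF-alpha, amphiregulin and several other ligands (chr11:16752203-16918158, plus strand). It was read at 69.9, 62.6 and 65.4 CPM in WT cocultures, 127, 120 and 102 CPM in IL13KO cocultures and 48.8, 41.3, 64.3 and 47.6 CPM in monocultures. The IL13KO cocultures lay above all other libraries, and monoculture 3 reached into the range of the WT cocultures. Egfr was 2.31-fold higher in IL13KO cocultures than in monocultures (log2 1.21 ± 0.14 SE, edgeR adjusted p = 1.34e-05; 0.94 with the trend removed) and lower in WT than in IL13KO cocultures (log2 -0.82 ± 0.15, adjusted p = 0.00144; -0.70 with the trend removed). Transcripts of like GC content (within 2 percentage points) had median log2 differences of -0.29 for IL13KO cocultures against monocultures and 0.01 for WT against IL13KO cocultures.

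WT cocultures exceeded monocultures in Egfr by 0.39 on the log2 scale (SE 0.14, edgeR adjusted p = 0.0252). That call was lost with the GC and length trend removed (0.24, adjusted p = 0.0803), with upper-quartile scaling (0.26, 0.109), with the replicate block (0.36, 0.0781), and without WT library 1 (0.35, 0.0800), monoculture 2 (0.30, 0.0739) or monoculture 4 (0.36, 0.0624). The tested difference between the cocultures shows where the receptor transcript differed: it was higher where the ILC2s lacked IL-13.

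Erbb2 encodes the receptor without a ligand of its own (chr11:98412470-98437716, plus strand). It was read at 25.8, 19.8 and 12.6 CPM in WT cocultures, 15.7, 17.8 and 19.6 CPM in IL13KO cocultures and 1.35, 2.07, 2.21 and 2.18 CPM in monocultures. Every coculture library exceeded every monoculture several-fold, and the WT and IL13KO ranges overlapped. Erbb2 was 9.89-fold higher with WT ILC2s (log2 3.31 ± 0.26 SE, edgeR adjusted p = 3.54e-07) and 9.02-fold higher with IL13KO ILC2s (log2 3.17 ± 0.26, adjusted p = 1.28e-06). Its transcript has a GC content of 57.3%, above the median of 49.9%, and transcripts of like GC content had median log2 differences of 0.68 and 0.75. With the trend removed the Erbb2 differences were 1.68 (adjusted p = 8.49e-06) and 1.31 (adjusted p = 0.000148), smaller than as fitted and still called. Between the cocultures the difference was 0.13, with a 95% interval of -0.38 to 0.64 (adjusted p = 0.731).

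Erbb3 (chr10:128567523-128589652, minus strand) had 3, 3 and 1 reads in WT cocultures, 0, 3 and 0 in IL13KO cocultures and 0 in all 4 monocultures. No library exceeded 3 reads, so Erbb3, a receptor for neuregulin 1, was at or under the limit of detection in every group and no fold was computed. Nrg1 levels differed between groups of libraries that held next to no Erbb3 reads. Erbb4, which encodes the other receptor for neuregulin 1, was not analysed here.

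Errfi1 encodes the inhibitor that binds and blocks the kinase of activated EGFR and its partners (chr4:150853919-150868892, plus strand). Its levels were 356, 310 and 264 CPM in WT cocultures, 173, 172 and 155 CPM in IL13KO cocultures and 35.3, 53.7, 56.8 and 53.7 CPM in monocultures. No library of one group overlapped another group. Errfi1 was 6.21-fold higher with WT ILC2s than in monoculture (log2 2.64 ± 0.15 SE, edgeR adjusted p = 3.34e-08) and 3.34-fold higher with IL13KO ILC2s (log2 1.74 ± 0.15, adjusted p = 1.98e-06). It was also 1.86-fold higher with WT than with IL13KO ILC2s (log2 0.90 ± 0.16, adjusted p = 0.00144). Removing the GC and length trend left 2.56, 1.65 and 0.91. Errfi1 was the one member called in the same direction in all 3 comparisons.

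**Figure D2:**
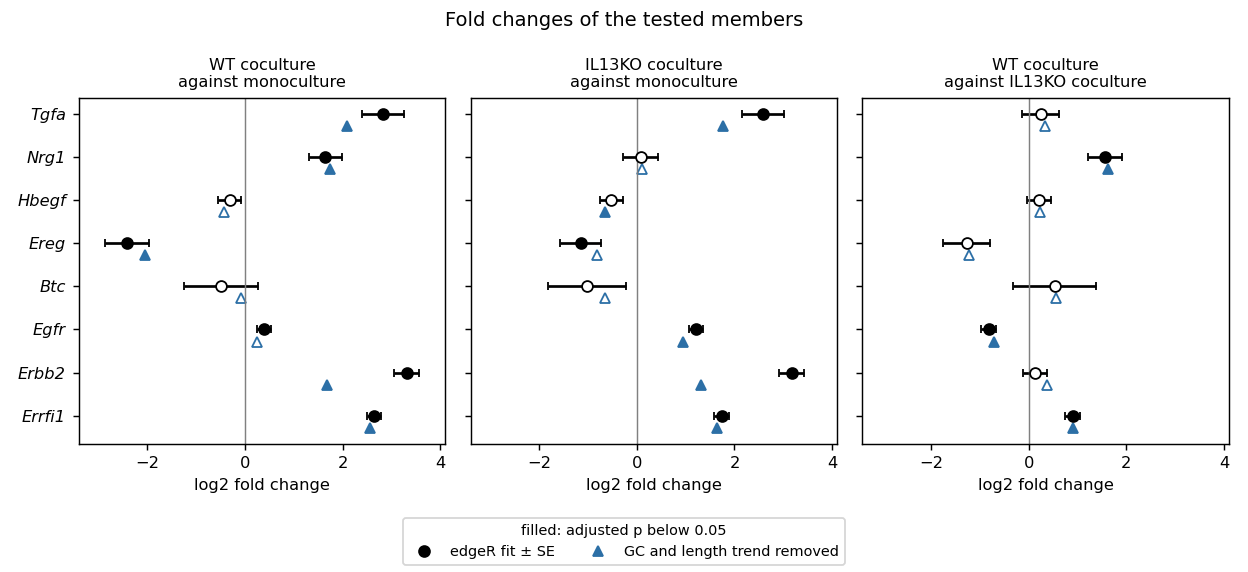
Log2 fold change of each tested member in the 3 comparisons, as fitted (circles, with 1 SE) and after removal of the GC and length trend (triangles), filled where the adjusted p was below 0.05. Erbb2 moves most with the trend removed, to 1.68 and 1.31 against monoculture, while Errfi1 stays at 2.56 and 1.65.

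Egfr and its inhibitor thus differed in opposite directions between the cocultures. In reads per library, Errfi1 stood at 5.09, 4.95 and 4.04 reads for each Egfr read in WT cocultures, 1.36, 1.44 and 1.51 in IL13KO cocultures and 0.723, 1.30, 0.884 and 1.13 in monocultures. The means were 4.69 ± 0.57 in WT cocultures, 1.44 ± 0.0755 in IL13KO cocultures (SD, n = 3 each) and 1.01 ± 0.256 in monocultures (SD, n = 4), and no library of one group overlapped another group. For Erbb2 the means were 0.293 ± 0.0912, 0.155 ± 0.0345 and 0.0395 ± 0.0103 reads per Egfr read in WT cocultures, IL13KO cocultures and monocultures; WT library 4 and IL13KO library 3 both gave 0.192. These ratios were chosen after the levels had been seen and were given no test; a ratio between transcripts in reads also depends on their lengths.

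**Figure D3:**
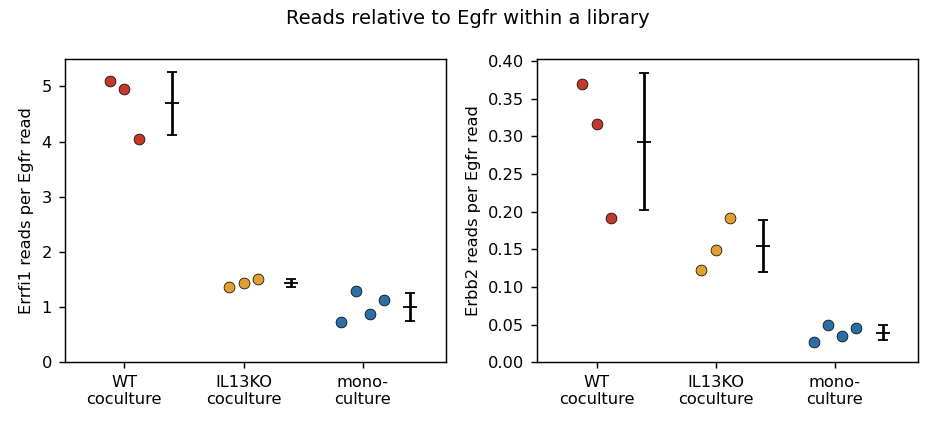
Reads of Errfi1 (left) and Erbb2 (right) for each Egfr read in the same library, on linear axes, with the mean and 1 SD beside each group. For Errfi1 the WT cocultures lie at 4.04 to 5.09, the IL13KO cocultures at 1.36 to 1.51 and the monocultures at 0.723 to 1.30.

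Per kilobase of transcript the order of the members differed between groups. In WT cocultures the mean level in CPM per kilobase was 102 for Errfi1, 6.46 for Egfr, 3.87 for Erbb2, 2.65 for Hbegf, 0.943 for Tgfa, 0.812 for Nrg1, 0.160 for Ereg and 0.151 for Btc, and the neighbours Erbb2 and Hbegf, Tgfa and Nrg1, and Ereg and Btc overlapped in range. In IL13KO cocultures it was 54.8 for Errfi1, 11.4 for Egfr, 3.54 for Erbb2, 2.29 for Hbegf, 0.794 for Tgfa, 0.389 for Ereg, 0.273 for Nrg1 and 0.105 for Btc, with overlap between Tgfa and Ereg and between Ereg and Nrg1. In monocultures it was 16.4 for Errfi1, 4.95 for Egfr, 3.27 for Hbegf, 0.869 for Ereg, 0.39 for Erbb2, 0.262 for Nrg1, 0.211 for Btc and 0.131 for Tgfa, and of these neighbours Errfi1 and Egfr, and Hbegf and Ereg, did not overlap. Errfi1 and Egfr held the top places in every group. Erbb2 stood above Ereg in the cocultures and below it in monocultures, and Tgfa was the lowest tested member in monocultures.

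Of 10 genes listed for the release of these ligands (ligand shedding), 8 were higher and 0 lower with WT ILC2s (median log2 1.24, against 0.02 for all genes tested), where 32.8% of all genes were higher and 29.7% lower. With IL13KO ILC2s 9 were higher and 0 lower (median 1.6, against 0.00), where 30.1% of all genes were higher and 27.3% lower. Once the GC and length trend was taken out, 6 were higher and 1 lower in each, with medians of 0.40 and 0.69, where 24.8% and 18.1% of all genes were higher and 33.8% and 30.4% lower with WT and IL13KO ILC2s. Adam15, a membrane protease of the ADAM family, averaged 126, 122 and 13.3 CPM in WT cocultures, IL13KO cocultures and monocultures (log2 3.25 and 3.21, edgeR adjusted p = 6.72e-08 and 3.17e-07; 1.78 and 1.51 with the trend removed), and 20.6% of its exon length lies opposite an antisense gene. Rhbdf1, which encodes the inactive rhomboid iRhom1, a carrier of ADAM17, averaged 32.3, 36.9 and 4.35 CPM (log2 2.89 and 3.08; 1.33 and 1.28 with the trend removed). Adam17 itself, the chief protease for TGF-alpha and amphiregulin, was singled out after its values were seen: its log2 differences were -0.17 and -0.04 (adjusted p = 0.291 and 0.796).

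Rhbdf2, which encodes iRhom2, the other carrier of ADAM17, was the one shedding gene higher with WT than with IL13KO ILC2s. It averaged 7.18, 2.69 and 0.472 CPM in WT cocultures, IL13KO cocultures and monocultures. WT against IL13KO cocultures gave log2 1.42 ± 0.37 SE (edgeR adjusted p = 0.0154; 1.64 with the trend removed), and WT cocultures against monocultures gave 3.94 ± 0.43 (adjusted p = 5.94e-06; 2.34 with the trend removed). In IL13KO cocultures against monocultures Rhbdf2 was at 2.52 (edgeR adjusted p = 0.000461), a call lost with the trend removed (0.70, adjusted p = 0.25). Adam9 and Adam19, further ADAM proteases, were lower with WT than with IL13KO ILC2s, at log2 -0.36 (adjusted p = 0.0136) and -0.53 (adjusted p = 0.0424). With the trend removed these were -0.32 and -0.36, each still called. Against monoculture Adam19 was higher in WT cocultures by 1.5 (0.31 with the trend removed) and in IL13KO cocultures by 2.04 (0.67). Adam9 was higher in WT cocultures by 0.58 (edgeR adjusted p = 7.03e-05) and in IL13KO cocultures by 0.94 (adjusted p = 2.94e-06). With the trend removed the Adam9 differences were 0.43 and 0.76.

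Of 14 genes listed for receptor trafficking and turnover, 7 were higher and 2 lower with WT ILC2s (median log2 0.47, against 0.02 for all genes tested), where 32.8% of all genes were higher and 29.7% lower. With IL13KO ILC2s 9 were higher and 0 lower (median 0.78, against 0.00), where 30.1% of all genes were higher and 27.3% lower. With the trend removed 7 were higher and 3 lower with WT ILC2s (24.8% and 33.8% of all genes), and 8 higher and 2 lower with IL13KO ILC2s (18.1% and 30.4%). The share called in either direction with WT ILC2s was close to the 62.5% of all genes. Cblb, an E3 ligase that tags activated receptors for degradation, averaged 46.0, 67.6 and 17.6 CPM in WT cocultures, IL13KO cocultures and monocultures (log2 1.39 and 1.94 against monoculture, edgeR adjusted p = 1.23e-06 and 3.55e-07), and was lower with WT than with IL13KO ILC2s by log2 -0.55 (adjusted p = 0.00832). With the trend removed the Cblb differences were 1.08, 1.54 and -0.46, each still called. Lrig2, of a family of transmembrane proteins that modulate growth factor receptors, was likewise lower with WT than with IL13KO ILC2s (log2 -0.79, adjusted p = 0.00394). Hgs, which sorts tagged receptors toward lysosomes, was higher by 2.87 and 2.91, with 1.59 and 1.44 left when the trend was removed; its reads are uncertain because 97.2% of its exon length is shared with a further annotated entry of the same name. Epn1, an endocytic adaptor, was higher by 2.72 and 2.97 (1.14 and 1.15 with the trend removed), and Ap2m1, a subunit of the clathrin adaptor AP-2, by 0.86 and 0.78 (0.49 and 0.38).

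The intracellular relays gave no direction that held once that trend was taken out. Of 17 genes for receptor adaptors and the RAS-ERK relay, 7 were higher and 2 lower with WT ILC2s (median log2 0.18; 32.8% of all genes higher and 29.7% lower), against 3 higher and 9 lower with the trend removed (median -0.24; 24.8% and 33.8% of all genes). With IL13KO ILC2s 8 were higher and 0 lower (median 0.36; 30.1% and 27.3% of all genes), against 2 higher and 5 lower with the trend removed (median -0.11; 18.1% and 30.4% of all genes). Ptpn11, which encodes the phosphatase SHP2, was higher by log2 0.71 and 0.83 with WT and IL13KO ILC2s as fitted, and lower with the trend removed (-0.24 and -0.26), each called. Map2k1, the kinase MEK1, kept its direction, at 0.60 and 0.50 as fitted and 0.34 and 0.22 with the trend removed. The docking proteins Gab1 and Gab2 were higher with WT ILC2s by 1.14 and 1.34 as fitted and were not called with the trend removed (0.21 and 0.43, adjusted p = 0.378 and 0.13); Gab2 with IL13KO ILC2s was at 1.47 as fitted and 0.43 (adjusted p = 0.15) with the trend removed. Between the cocultures 2 were lower with WT ILC2s and 0 higher: Shc1, an adaptor of the phosphorylated receptor (log2 -0.59, edgeR adjusted p = 0.0189), and Mapk3, the kinase ERK1 (-0.76, adjusted p = 0.0412). Shc1 against monoculture was at 1.03 in IL13KO cocultures as fitted and at 0.18 (adjusted p = 0.139) with the trend removed.

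Of 12 genes for the PI3K and STAT relay, 8 were higher and 3 lower with WT ILC2s (median log2 0.96), where 32.8% of all genes were higher and 29.7% lower; with the trend removed 1 was higher and 5 lower (median -0.31; 24.8% and 33.8% of all genes). With IL13KO ILC2s 8 were higher and 2 lower (median 1.45), where 30.1% of all genes were higher and 27.3% lower; with the trend removed 3 were higher and 4 lower (median 0.09; 18.1% and 30.4% of all genes). The PI3K subunits moved apart. Pik3r2, a regulatory subunit, was higher by 3.02 and 3.50 with WT and IL13KO ILC2s (1.37 and 1.57 with the trend removed, each called). Pik3ca, the catalytic subunit p110-alpha, was lower with WT ILC2s by log2 -1.33 (edgeR adjusted p = 1.32e-05; -1.21 with the trend removed). It was also lower with IL13KO ILC2s than in monoculture, by log2 -1.01 (edgeR adjusted p = 0.000158). That call was kept with the trend removed (adjusted p = 5.71e-05). Between the cocultures Pik3ca was not called (log2 -0.32, edgeR adjusted p = 0.193). Pik3r1, the regulatory subunit p85-alpha, averaged 17, 30 and 35 CPM in WT cocultures, IL13KO cocultures and monocultures, and was lower with WT ILC2s than in monoculture (log2 -1.04, adjusted p = 1.61e-05) and than with IL13KO ILC2s (-0.82, adjusted p = 0.000835). With the trend removed these Pik3r1 differences were -1.18 and -0.72. In IL13KO cocultures against monocultures Pik3r1 was not called as fitted (-0.22, edgeR adjusted p = 0.144) but was with the trend removed (-0.46, adjusted p = 0.00309). Stat3, a transcription factor activated by many receptors, was higher by 0.75 and 1.07 as fitted but stood at -0.33 (adjusted p = 0.0117) and -0.18 (adjusted p = 0.158) with the trend removed. Akt2, a kinase downstream of PI3K, was higher with IL13KO ILC2s by 2.07 (0.61 with the trend removed, still called). With WT ILC2s it was higher by 1.42, a call lost with the trend removed (0.15, edgeR adjusted p = 0.316). Stat5a was lower with WT than with IL13KO ILC2s by log2 -0.84 (adjusted p = 0.0117), a call lost with the trend removed (-0.65, adjusted p = 0.0593), and was higher with IL13KO ILC2s than in monoculture by 1.79 (0.32, adjusted p = 0.276, with the trend removed).

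**Figure D4:**
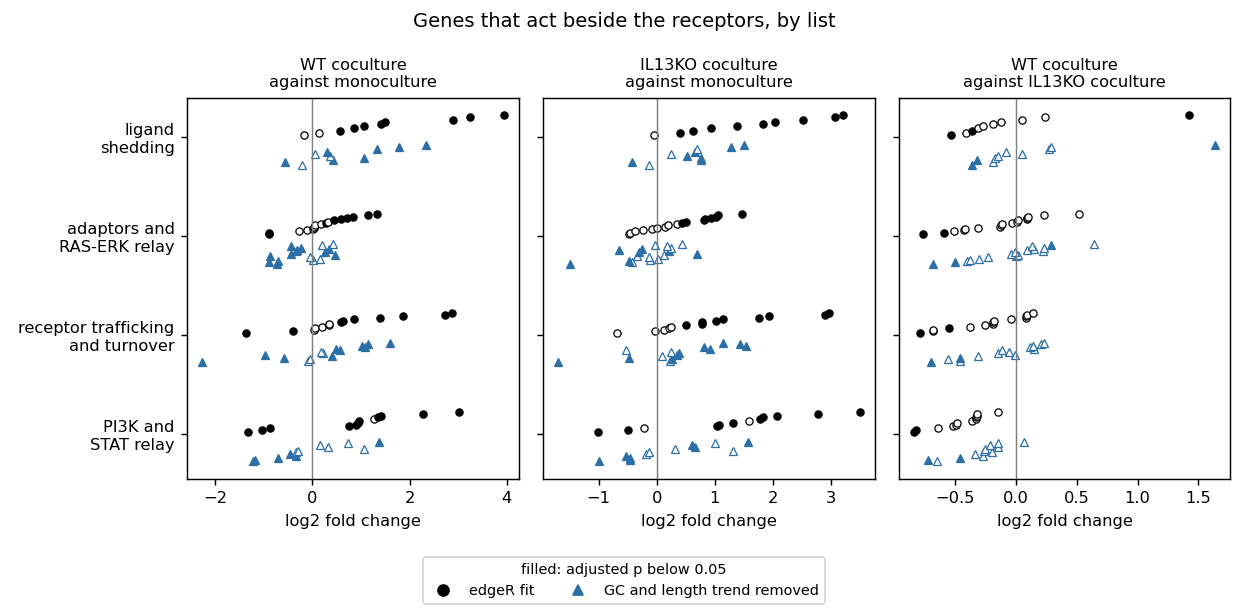
Log2 fold change of each tested gene in 4 lists of genes that act beside the receptors, as fitted (circles) and after removal of the GC and length trend (triangles), filled where the adjusted p was below 0.05. Shedding and trafficking genes stay mostly right of 0 against monoculture, with medians of 0.31 to 0.69 after removal, while the PI3K and STAT relay has medians of -0.31 and 0.09.

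Genes listed as markers of other cell types were set beside these results. A single gene made up most of each of their summed levels. Of 12 ILC2 markers 11 had a row; their summed level was 58.5 to 77.8 CPM in WT cocultures, 69.4 to 73.3 CPM in IL13KO cocultures and 82.3 to 96.7 CPM in monocultures, of which Rora, also expressed by fibroblasts, made up 61.7%, 77.7% and 73.4%. Il5 had 80, 265 and 371 reads in WT cocultures, 30, 64 and 12 in IL13KO cocultures and 0 in monocultures, and Il7r and Klrg1 had at most 5 and 10 reads in any library. Gata3, the master regulator of ILC2s, was at 4.26 to 5.64 CPM in WT cocultures, 1.81 to 3.69 CPM in IL13KO cocultures and 0.738 to 2.18 CPM in monocultures, and Il2ra had 15 to 45, 4 to 74 and 0 to 1 reads in the same groups. The order of the Gata3 ranges was that of Errfi1, with overlap between IL13KO cocultures and monocultures. The listed marker Hey1 ran the other way, at 0.615 to 1.13, 7.09 to 8.28 and 17.3 to 21.7 CPM in the same groups. Rora did so too, at 36.8 to 47.6, 51.7 to 57.4 and 59.8 to 71.1 CPM. Calca and Il17rb followed neither order, and Icos had at most 3 reads in any library. WT library 1, which had the highest Tgfa, Erbb2 and Errfi1 levels, had the fewest Il5 and Il13 reads of the WT cocultures. Nrg1 ran the other way among those libraries. WT library 4, with the most Il5 and Il13 reads, had the highest Nrg1 level, at 5.07 CPM against 4.08 and 4.05 CPM. The 12 leukocyte markers summed to 96.7 to 122 CPM in WT cocultures, 15.4 to 23.8 CPM in IL13KO cocultures and 4.22 to 8.65 CPM in monocultures, in the order seen for Errfi1; Cd53 made up 93.2%, 83.1% and 54.3% of it, and Cd48, Laptm5, Ptprc and Rac2 were at 0 in the monocultures and Cd48 also in the IL13KO cocultures. Not every leukocyte marker followed that order. Lcp1 was at 0.718 to 1.9, 0.624 to 1.19 and 0 to 2.88 CPM in WT cocultures, IL13KO cocultures and monocultures. Fyb was at 0.769 to 1.4, 0.794 to 1.02 and 0.738 to 1.62 CPM. The part of ILC2s and other leukocytes in the Nrg1 and Errfi1 differences was not tested.

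Epithelial cells express Erbb2, Tgfa and Egfr, so their markers were set beside those genes. Of 14 epithelial markers 9 had a row, and their summed level was 111 to 147 CPM in WT cocultures, 96.2 to 125 CPM in IL13KO cocultures and 51.8 to 65.8 CPM in monocultures. Sox9 made up 93.5%, 86.2% and 66.4% of it; the defining marker Krt8 was at 0 in WT cocultures and monocultures and had at most 4 reads in an IL13KO coculture, and Cdh1 was at 0 in IL13KO cocultures and monocultures and had at most 14 reads in a WT coculture. Krt19 was at 0.853 to 1.29 CPM (19 to 24 reads) in WT cocultures, 0.397 to 0.682 CPM (7 to 12 reads) in IL13KO cocultures and 0 to 0.553 CPM (0 to 6 reads) in monocultures; WT cocultures stood above both other groups, which overlapped. Krt18 had 0 to 44, 0 to 22 and 0 to 17 reads in the same groups. Cela1 ran the other way, at 5.52 to 6.84 CPM (123 to 128 reads), 12.4 to 13.9 CPM (218 to 244 reads) and 14.7 to 23.5 CPM (159 to 278 reads). Krt7 had 0 to 1, 10 to 29 and 0 to 19 reads. Of 8 Schwann cell markers 4 had a row, with sums of 1.13 to 1.71, 12 to 13.2 and 2.62 to 4.98 CPM in WT cocultures, IL13KO cocultures and monocultures, led by Ngfr. The sums for mesothelial markers were 130 to 151, 107 to 227 and 25 to 150 CPM in the same order (5 of 6 with a row, led by Wt1). For endothelial markers they were 43.9 to 47.1, 12.5 to 19.0 and 6.50 to 13.2 CPM (5 of 8, led by Flt1 in WT cocultures and Egfl7 in the other groups). For macrophage markers they were 14.9 to 17.7, 35.3 to 37.1 and 58.4 to 65.6 CPM (5 of 9, led by Csf1r in WT cocultures and Lyz2 in the other groups). Msln, Pecam1 and Kdr had at most 3, 8 and 7 reads in any library. Other mesothelial markers were high in some libraries. Upk3b had 0 to 110, 41 to 1291 and 0 to 498 reads in WT cocultures, IL13KO cocultures and monocultures. Upk1b had 0 to 126, 64 to 439 and 0 to 644 reads, and Lrrn4 had 0 to 59, 7 to 301 and 0 reads. The part of these cell types in the member differences was not tested.

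The genes most like Egfr, Errfi1 and Hbegf in level across the 10 libraries were found by Pearson's r of log2 CPM among 8915 genes whose mean reached 10 CPM in 1 or more groups. The libraries fall into 3 groups, so r for Egfr and Errfi1 mostly reflects the order of the group means. The groups overlapped for Hbegf, so its r also takes in the spread between libraries within a group. For Egfr these were Eps8 (r 0.982), Icam1 (0.977), Tgfbr3 (0.976), Itga11 (0.976) and Isyna1 (0.974), each with its highest mean in IL13KO cocultures: Eps8, which encodes a substrate of the EGF receptor kinase, averaged 30 CPM in WT cocultures, 45.5 CPM in IL13KO cocultures and 25.8 CPM in monocultures. For Errfi1 they were Cd151, Klhl25 and Fads2 (0.994 each), Prpf19 and Atp10a (0.993 each), each highest in WT cocultures and lowest in monocultures. For Hbegf they were Trmt6 (0.893), Elp4 (0.876), Mrpl54 and Zcchc7 (0.871 each) and Vps35 (0.870), each highest in monocultures and lowest in IL13KO cocultures.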

How the data were processed

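Per the labels, RNA of sorted fibroblasts went into a low-input library kit and was sequenced as paired reads. The submitters' processing notes name the build GRCm38.p6 and the tools STAR 2.7.7a, Salmon 1.6.0, Trimmomatic 0.39, FastQC 0.11.9, DESeq2 and Picard; the counting tool, annotation and strand setting are not given in the sources used here, so reads of genes that overlap on opposite strands cannot be told apart. The authors deposited whole-number counts for 22731 genes in 10 libraries, of which 22639 matched a symbol, position, GC content and length in GENCODE M21. A normalized table was not used.

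From the counts, edgeR 4.0.16 in R 4.3.3 kept 16344 genes (filterByExpr), scaled libraries by TMM and fitted 1 quasi-likelihood coefficient per group to all libraries, which share 1 estimate of the spread. P-values were adjusted by Benjamini-Hochberg within a comparison and called below 0.05; 95% intervals are unadjusted. CPM are TMM-scaled, with a prior count of 2 on the log2 scale. Length and GC content are those of the longest protein-coding transcript. The GC and length trend was a loess curve (span 0.4) per library, taken out as an offset. Fits were tested on simulated data in which 200 genes were changed, far fewer than were called in the real comparisons. Of the changed genes, 61 or 62 of 66 were recovered at 4-fold and 35 or 36 of 67 at 2-fold. At 1.5-fold 11 to 16 of 67 were recovered, so differences of that size were mostly missed.

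Members and gene lists were chosen with earlier results of these data known. All members and measured relatives are named; of each other list, per comparison, up to 4 called genes with the smallest adjusted p; for Hbegf, Egfr and Errfi1 the 5 most similar genes. Alternatives were RLE and upper-quartile scaling, no filter, a filter of 1 CPM in 3 libraries, only the 2 groups compared, a replicate block, the trend removal, DESeq2 1.42.0, limma-voom 3.58.1 and leaving out each library. No pair of libraries within a group agreed within sampling noise (chi-square per gene 7.14 to 32.04).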

Additional observations from a re-analysis of the deposited data

Results flagged for a closer look

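Monoculture 1 lay far below the other monocultures for 2 members. Errfi1 was read there at 35.3 CPM, against 53.7 to 56.8 CPM in monocultures 2 to 4, and Erbb2 at 1.35 CPM (16 reads), against 2.07 to 2.21 CPM. In a group of 4 libraries, such a gap is passed by chance in about 1 of 20 groups for a single gene. The check was made on every tested member and on Egf and Nrg4, and no other gene passed it. A pass somewhere among several genes is more likely than that. Without monoculture 1 the log2 differences from monoculture in WT and IL13KO cocultures were 2.5 and 1.6 for Errfi1 and 3.17 and 3.03 for Erbb2, all called by edgeR's test (highest adjusted p 2.53e-06).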

How the results depend on the processing

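Members called stood at 5 to 6, 4 to 6 and 3 to 4 for WT cocultures against monocultures, IL13KO cocultures against monocultures and WT against IL13KO cocultures over 19 alternatives, and no member call changed sign. Leaving out 1 library gave the same 3 ranges, and 9070 to 10459, 7891 to 9727 and 2337 to 4814 genes called. In the third comparison, 3810 genes as fitted, the count was 5806 with only those 2 groups in the fit; it was 2337 without IL13KO library 2, 2482 without IL13KO library 1 and 2523 without WT library 4. Each of these fits held fewer libraries than the main fit, and the causes of the changed counts were not tested.

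The column numbers did not pair the libraries: deviations of same-numbered libraries correlated at -0.126 to 0.028 over 8 pairs, and 1 of 16 checks was best with its own number. With the replicate block 5, 5 and 3 members and, between the cocultures, 2124 genes were called; Egfr in WT cocultures against monocultures was not (0.36, edgeR adjusted p = 0.0781).

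Upper-quartile scaling moved the median of all genes by -0.121 and -0.104 log2 against monoculture in WT and IL13KO cocultures, and trend removal by -0.084 and -0.108; the member folds given include these shifts. Btc had too few reads to be tested with the filter of 1 CPM in 3 libraries, with only the 2 groups compared, without monoculture 1 or without monoculture 2. Depth limits Btc, Erbb3, Egf and Epgn most.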
